A study of Mus musculus with 4 samples.

Results

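Microglia and activated microglia of the mouse ventromedial prefrontal cortex (vmPFC) were examined in a MERGE-seq experiment, which reads the transcriptome of single cells together with RNA barcodes carried by retrograde viruses. The members were the cells that the authors' annotation calls microglia (2951 cells) or activated microglia (85 cells). These 3036 cells were 15.1% of the 20047 annotated cells and 30.9% of the 9822 annotated non-neuronal cells. Male C57BL/6 mice received rAAV-EGFP-barcode viruses on one side of the brain at 8 weeks of age, with a different barcode in each of 5 targets (AI, agranular insular cortex; DMS, dorsomedial striatum; MD, mediodorsal thalamus; BLA, basolateral amygdala; LH, lateral hypothalamus). Every animal received all 5 viruses, and no uninjected animal was analysed here. In 3 mice the prelimbic and infralimbic cortex was dissociated without sorting, with 1 library per mouse, and in 3 further mice EGFP-positive cells were FAC-sorted and pooled into 1 library. The FAC-sorted library therefore has no replicate, and its mice cannot be told apart.

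Microglia are the resident macrophages of the brain parenchyma. They arise outside the neural lineage, have no axons that reach other brain regions, and survey and engulf debris and parts of cells. The virus used here is taken up at axon terminals and carried back to the cell body, and it drives EGFP and its barcode from a broadly active promoter. A barcode in a cortical projection neuron is read as an axon in the target. In the study non-neuronal cells, microglia among them, served as cells that should hold no barcode, and the thresholds for a valid barcode were set partly from their counts. A UMI is a random tag given to each cDNA molecule before amplification, so that reads of the same molecule are counted once.

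The 5 barcodes are shown because the counts of microglia rest on telling them apart in sequencing reads. Each has 15 bases and differs from its nearest neighbour at 10 positions, and capitals mark the bases that no other barcode has at that position.
AI: CtgCAccgaCGcAtt
DMS: gaAggcAcagacTtt
MD: gttggcTgCAaTcCa
BLA: AagAcgccgTCGcaa
LH: TatTcgGAggacGaC

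The label was compared here only with a second clustering of the same cells, which is not an independent check of the cell type. Gene counts were not analysed here, so the markers Cx3cr1 and P2ry12 were not read. The study's own list of marker genes for these clusters was not examined. Of the cells annotated as microglia, 2948 of 2951 lay in the same Louvain cluster of the deposited annotation, where 1 activated cell lay too. Of the activated microglia, 84 of 85 lay in another Louvain cluster of 116 cells, and 32 of the cells of that cluster were annotated as endothelial cells. The study names activated microglia by C1qa, a complement gene of microglia and macrophages, together with Pf4, a chemokine gene that is also known from macrophages at the borders of the brain. "Activated" is therefore the name of a cluster here, and no measure of activation was made.

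The FAC-sorted library stood apart in projectome reads per recovered cell. It had 14639 of them, against 2542, 4115 and 4544 in unsorted mice 1, 2 and 3. Its 2068 recovered cells held 627188 different combinations of cell, barcode and UMI, against 635292 in the 8042 cells of mouse 1. Reads per such combination lay closer together, at 37.7 on average in excitatory neurons against 26.7, 33.9 and 33.5. The libraries shared 82 of 24704 different cell barcodes, and 17 of the 3036 microglia, all in unsorted mice, had a cell barcode that also occurred in another library. The barcode tables hold 24788 cells, and 4741 of them, with no annotation, could not be assigned to microglia or to any other type. By the study's account, cells were dropped on quality limits and, after typing, for unusually high barcode UMIs. The cells without annotation are therefore partly selected on the barcode counts themselves.

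In the unsorted mice microglia made up an almost constant share of the cells. They were 1031 of 6614 annotated cells (15.6%, exact binomial 95% interval 14.7 to 16.5) in mouse 1, 946 of 5966 (15.9%, 14.9 to 16.8) in mouse 2 and 917 of 5775 (15.9%, 14.9 to 16.8) in mouse 3. The mean was 15.8% ± 0.162 (SD, n = 3), although the labels describe the material as labelled neurons. Intervals and limits here cover counting error only. The FAC-sorted library held 57 microglia among 1692 annotated cells (3.37%, 2.56 to 4.34), below every unsorted mouse. The difference was -12.4 percentage points (exact two-sided permutation test, p = 0.25, the smallest p that 1 library against 3 allows).

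Among the non-neuronal cells alone the order was the opposite. Microglia were 29.4%, 29.7% and 30.0% of the non-neuronal cells of the unsorted mice (29.7% ± 0.273, SD, n = 3), and 57 of 73 (78.1%, 66.9 to 86.9) after FAC-sorting. The EGFP gate acts on both shares, so neither is a share of the tissue. The other non-neuronal cells that came through the gate were 11 oligodendrocytes, 4 oligodendrocyte progenitor cells (OPC) and 1 activated microglial cell, with no endothelial cell and no astrocyte.

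**Figure D1:**
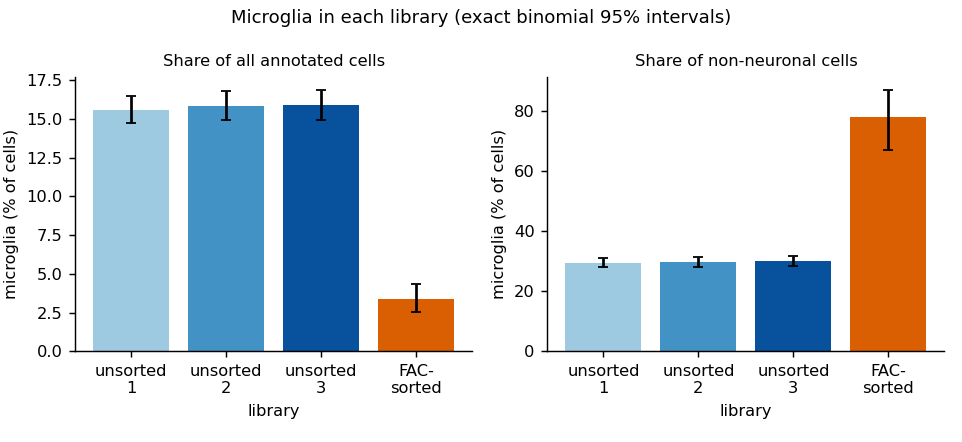
Microglia in percent of all annotated cells (left) and of the annotated non-neuronal cells (right) in each of the 4 libraries, as bars with exact binomial 95% intervals. The 3 unsorted mice lie between 15.6% and 15.9% on the left and near 30% on the right, and the FAC-sorted library lies below them on the left at 3.37% and above them on the right at 78.1%.

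Set against excitatory neurons, microglia were reduced less by the sort than any other type was, by these point values. There were 39.5, 41.4 and 39.9 microglia per 100 excitatory neurons in the unsorted mice and 3.54 after sorting, which is 11.4-fold fewer (11.2 to 11.7 by mouse). Activated microglia fell from 1.17 to 0.0621 per 100 excitatory neurons, 18.8-fold, but on 1 sorted cell. The same ratio was 35.9 for oligodendrocytes, 39.5 for inhibitory neurons (8 sorted cells) and 99.4 for OPC. For endothelial cells and astrocytes, with 0 sorted cells, it was at least 204 and at least 36.9, from a limit of 3 counts over the library. These ratios come from 1 sort and were not tested.

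Activated microglia were a small and even fraction of all microglia. They were 30 of 1061 (2.83%, 1.92 to 4.01), 26 of 972 (2.67%, 1.75 to 3.89) and 28 of 945 (2.96%, 1.98 to 4.25) in unsorted mice 1, 2 and 3, a mean of 2.82% ± 0.144 (SD, n = 3). In the FAC-sorted library they were 1 of 58 (1.72%, 0.0436 to 9.24), an interval that holds all 3 unsorted values. The difference of -1.10 percentage points had p = 0.25 in the exact two-sided permutation test, the smallest p that 1 library against 3 allows.

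The microglia that came through the sort held more RNA, more genes and less mitochondrial RNA than the unsorted ones. These measures come from the RNA that the clusters were made from and are given without a test. By the study's methods, the FAC-sorted library also had several-fold more scRNA-seq reads per cell than each unsorted library. The part of this depth in the differences was not tested. The median was 4108, 4106 and 4314 RNA UMIs per microglial cell in unsorted mice 1, 2 and 3 (mean 4176 ± 120, SD, n = 3) and 7149 after sorting, a ratio of 1.71. The median number of genes was 1626, 1623.5 and 1672 against 2487, a ratio of 1.52. The median percentage of mitochondrial UMIs was 7.21, 7.18 and 7.08 against 3.00, a ratio of 0.419.

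The ranges overlapped. Sorted microglia had from 3617 to 10639 RNA UMIs, and 38 of 57 lay above the 95th percentile of the unsorted microglia (6573 RNA UMIs). For genes 52 of 57 lay above the 95th percentile, and for mitochondrial UMIs 39 of 57 lay below the 5th percentile (3.62%). The shift was not specific to microglia. In excitatory neurons the ratio of the sorted to the unsorted median was 1.42 for RNA UMIs, 1.18 for genes and 0.549 for mitochondrial UMIs, and in oligodendrocytes, with 11 sorted cells, it was 2.95, 2.02 and 0.564.

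Within each unsorted mouse the activated microglia had the higher medians. These were 4522, 4873 and 5399.5 RNA UMIs (mean 4931.5 ± 442, SD, n = 3), 1747.5, 1876 and 1881 genes, and 8.04%, 9.36% and 8.21% mitochondrial UMIs. All 9 medians lay above those of the other microglia of the same mouse. Their upper tail was long, with a cell of 21384 RNA UMIs in mouse 1, where no microglial cell of the other state exceeded 12110 in any unsorted mouse. The single sorted activated cell had 8828 RNA UMIs, 3112 genes and 2.59% mitochondrial UMIs, with RNA UMIs and mitochondrial share inside the range of the sorted microglia and genes just above it (3082). Doublets were removed only by the authors' upper limits on genes, RNA UMIs and barcode UMIs.

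**Figure D2:**
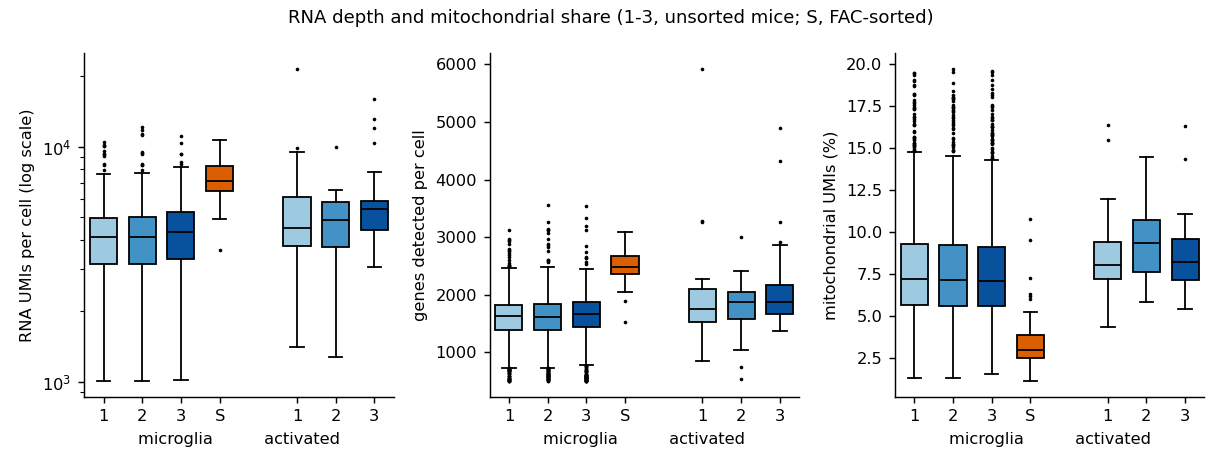
RNA UMIs per cell (log scale), genes per cell and percent mitochondrial UMIs of microglia (left group) and activated microglia (right group) in unsorted mice 1 to 3 and the FAC-sorted library (S). Boxes give the median and quartiles, whiskers reach 1.5 times the interquartile range and dots are cells beyond it. The sorted microglia have a median of 7149 RNA UMIs and 3.00% mitochondrial UMIs, against 4106 to 4314 and 7.08% to 7.21% without sorting.

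Nearly every microglial cell had barcode UMIs, but few of them. The deposited tables gave a mean of 5.12, 8.98 and 8.75 barcode UMIs per microglial cell in unsorted mice 1, 2 and 3 (7.61 ± 2.16, SD, n = 3), with medians of 4, 8 and 8. The highest cell had 72, 156 and 81. In the FAC-sorted library the mean was 30.9, the median 31 and the highest cell 85, so that even the 5th percentile of the sorted microglia (18.4) lay above the 95th percentile in mouse 1 (11.5) and near that of mice 2 and 3 (19 and 18). The sorted mean was 4.05-fold the mean of the unsorted mice. By the difference of log2 values it was 4.18-fold higher (log2 difference 2.06, exact two-sided permutation test, p = 0.25, the smallest possible).

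Per 10000 RNA UMIs, microglia had 12.4, 21.8 and 20.3 barcode UMIs without sorting and 42.5 with it. The sorted value was 2.34-fold the unsorted mean. By the difference of log2 values it was 2.41-fold higher (log2 difference 1.27, exact two-sided permutation test, p = 0.25). The unsorted values spread by 5.03 (SD, n = 3), with mouse 1, the library with the fewest reads per cell, below the other two. Thinning was done on UMIs recounted from the reads. Before thinning, this recount gave sorted microglia 3.68-fold the unsorted mean per cell and 2.12-fold the unsorted mean per 10000 RNA UMIs. After thinning to equal reads per recovered cell, microglia of the unsorted mice held a mean of 6.06, 6.65 and 6.21 and sorted microglia 7.98, 1.27-fold more (exact two-sided permutation test, p = 0.25). Per 10000 RNA UMIs it was then 14.7, 16.1 and 14.4 against 11.0, so that the sorted value was lower, 0.729-fold (exact two-sided permutation test, p = 0.25). The direction per RNA UMI therefore depended on whether reads per recovered cell were made equal. Equal reads per recovered cell are not equal reads per barcode UMI. With all reads, a barcode UMI of microglia had on average 4.18, 5.77 and 5.63 reads in the unsorted mice and 7.62 after sorting. Thinning to equal reads per barcode UMI was not tested. The RNA UMIs were not thinned either, although the FAC-sorted library had more scRNA-seq reads per cell.

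The same thinning brought the 3 unsorted mice close together, from an SD of 2.12 around a mean of 8.51 in the recount with all reads to 0.303 around a mean of 6.31. Excitatory neurons behaved likewise, with 80.4 ± 1.37 barcode UMIs per cell (SD, n = 3) in the unsorted mice and 94.7 after sorting at equal reads, and 37.8 ± 1.99 and 31.6 per 10000 RNA UMIs.

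**Figure D3:**
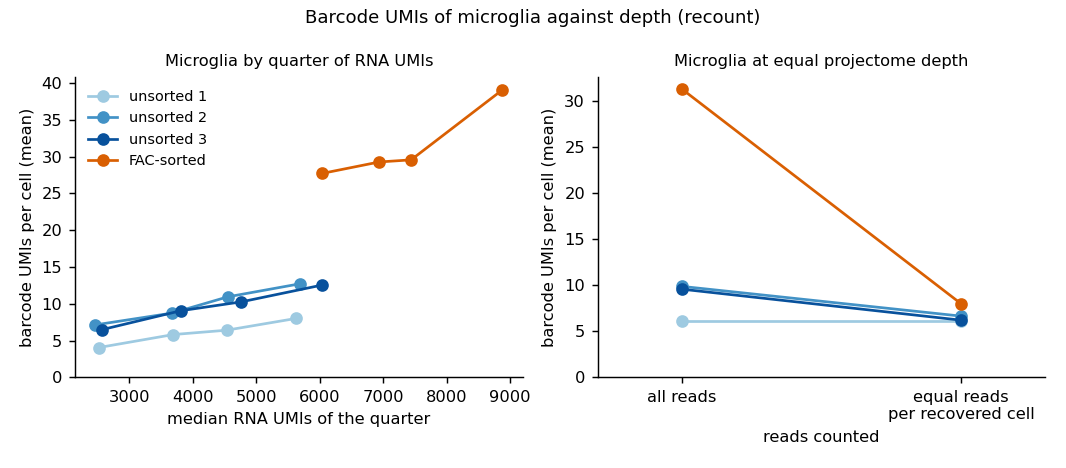
Left, mean barcode UMIs per microglial cell (recounted from the reads) against the median RNA UMIs in each bin of the microglia of a library, which was cut into 4 bins of equal size by RNA UMIs. Right, the mean per microglial cell with all reads and after thinning to equal reads per recovered cell. The FAC-sorted library lies far above the others with all reads, at 31.4, and at 7.98 against 6.06 to 6.65 with equal reads.

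Within a library, microglia with more RNA had more barcode UMIs. The rank correlation of RNA UMIs and barcode UMIs over cells was 0.41, 0.44, 0.48 and 0.29 in unsorted mice 1 to 3 and the sorted library, as a description over 1031, 946, 917 and 57 cells that share their library and capture efficiency. With the microglia of each library cut into 4 bins of equal size by RNA UMIs, from the lowest to the highest bin, the mean rose from 4.05 to 8.00 barcode UMIs in mouse 1, from 7.13 to 12.7 in mouse 2 and from 6.48 to 12.5 in mouse 3. The rise was less than proportional to RNA, since the barcode UMIs per 10000 RNA UMIs went from 17.2 to 13.6, from 31.0 to 21.3 and from 27.3 to 20.1. The fall was not steady in mouse 2, with 23.9 and 24.0 in the middle bins. In the sorted library, with 14 or 15 cells per bin, the bins had 48.0, 42.8, 39.2 and 43.5 from lowest to highest. The rank correlation with the percentage of mitochondrial UMIs was at most 0.0955 in size in microglia in any of the 4 libraries. In activated microglia, over 30, 26 and 28 cells of mice 1 to 3, it was -0.11, -0.27 and -0.14. Their rank correlation of RNA UMIs and barcode UMIs was 0.56, 0.62 and 0.40.

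The spread over cells was wider than counting alone gives. The variance of the barcode UMIs over microglial cells was 4.66, 7.69 and 4.83 times the mean in mice 1 to 3 and 4.89 times among sorted cells, where a Poisson count has a ratio of 1. The 1% of microglia with the most barcode UMIs held 7.28%, 6.94% and 5.86% of them in the unsorted mice. Only 7 of 2894 unsorted microglia, and 0 of the 57 sorted ones, exceeded the median excitatory neuron of their own library (35, 52, 49 and 201 barcode UMIs). That 0 allows a share of up to 5.26%.

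Per cell, activated and other microglia differed by less than the spread between mice. They had 6.03, 7.73 and 10.3 barcode UMIs per cell in unsorted mice 1, 2 and 3, higher than the other microglia in mice 1 and 3 and lower in mouse 2. The log2 ratio was 0.08 ± 0.26 (SD, n = 3, exact two-sided sign-flip test, p = 0.5), and -0.027 with UMIs of at least 2 reads. Per 10000 RNA UMIs they had 11.2, 16.3 and 16.6, below the other microglia in all 3 mice, with a log2 ratio of -0.29 ± 0.14 (0.820-fold, exact two-sided sign-flip test, p = 0.25, the smallest p that 3 libraries allow). The activated microglia also had more RNA UMIs per cell. Among the other microglia of each unsorted mouse, the value per 10000 RNA UMIs was lower in the highest RNA bin than in the lowest. The part of RNA depth in this difference was not tested. DMS took 65.2% ± 2.41 of the barcode UMIs in activated and 65.0% ± 0.219 in other microglia (SD, n = 3).

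Compared within each library, microglia lay close to the other non-neuronal types in barcode UMIs per cell. The log2 ratio of barcode UMIs per cell, microglia over the other type, was 0.05 ± 0.03 for endothelial cells, 0.18 ± 0.09 for astrocytes and -0.15 ± 0.07 for OPC (SD, n = 3 unsorted mice, exact two-sided sign-flip test, p = 0.25 each). The direction to endothelial cells turned with UMIs of at least 2 reads, where the log2 ratio was -0.16. For oligodendrocytes it was -0.43 ± 0.43 over 4 libraries (exact p = 0.13) and -0.22 without the FAC-sorted library, where 11 oligodendrocytes had 64 barcode UMIs per cell against 30.9 in microglia. The 3 unsorted values of the oligodendrocytes, 6.30, 11.2 and 9.09, were also above those of the microglia.

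The distance to the neurons was larger. Inhibitory neurons, whose axons mostly stay in the cortex, had 24.1 ± 6.36 barcode UMIs per cell (SD, n = 3), and microglia lay below them by a log2 ratio of -1.67 ± 0.16 (exact two-sided sign-flip test, p = 0.25). Excitatory neurons, the cells with long axons to the targets, had 80.9, 107.9 and 109.6 barcode UMIs per cell in unsorted mice 1, 2 and 3, and 267.8 after the sort. Microglia had 12.0-fold fewer (log2 ratio -3.58 ± 0.36, lower in 4 of 4 libraries, exact two-sided sign-flip test, p = 0.13, the smallest possible), 0.0514-fold the excitatory value with UMIs of at least 2 reads and 0.162-fold with medians of the recount. Adjusted over the 6 types, p was 0.25 for every one of these exact sign-flip tests. The authors had removed cells with unusually high barcode UMIs after typing, so these are not among the annotated cells used here. The highest excitatory neuron kept had 402, 485 and 528 barcode UMIs in unsorted mice 1, 2 and 3 and 1005 after the sort. All ratios of microglia to excitatory neurons given here hold only for the cells kept.

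Per 10000 RNA UMIs the distance was smaller. Excitatory neurons had 39.6, 50.2 and 49.8 in the unsorted mice and 89.4 after sorting, 2.48-fold more than microglia (log2 ratio -1.31 ± 0.26, lower in 4 of 4 libraries, exact two-sided sign-flip test, p = 0.13, adjusted p = 0.30). The size depended on the counting, since microglia had 0.249-fold the value of excitatory neurons with UMIs of at least 2 reads and 0.739-fold with medians over cells of the recount. Inhibitory neurons had 16.8 ± 3.70 and microglia 18.2 ± 5.03 (SD, n = 3), a log2 ratio of 0.10 ± 0.15 that was positive in 2 of 3 mice (exact p = 0.5). The log2 ratios to the other non-neuronal types lay between -0.10 for astrocytes and 0.24 for oligodendrocytes.

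**Figure D4:**
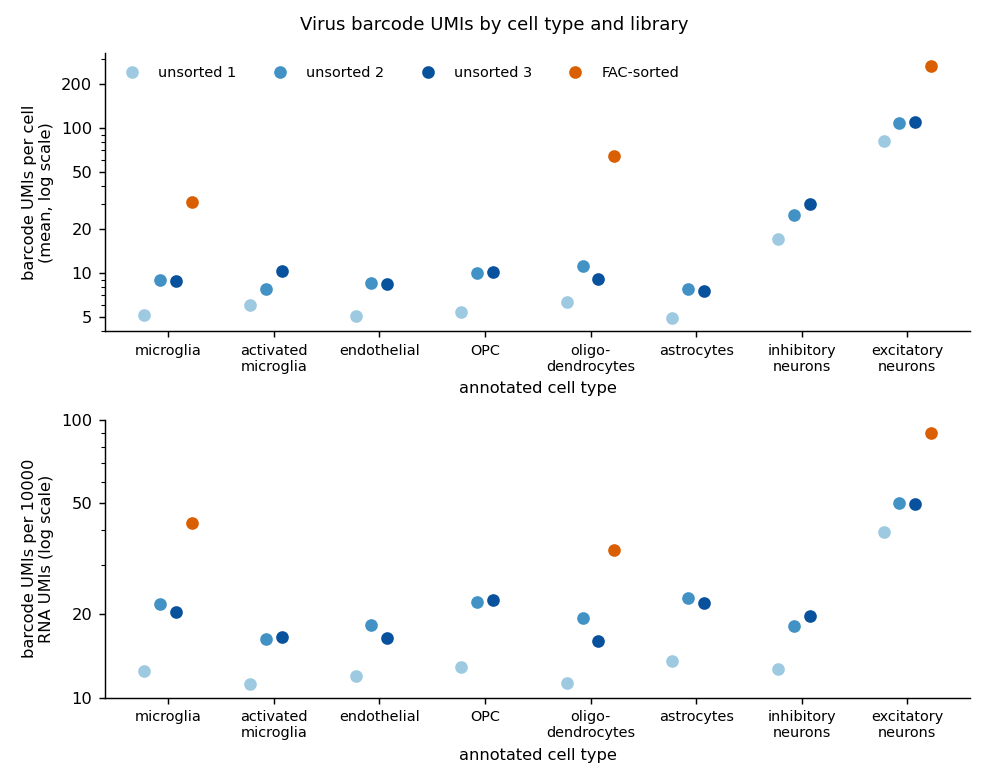
Mean barcode UMIs per cell (top) and barcode UMIs per 10000 RNA UMIs (bottom), both on a log scale, for the 8 annotated cell types, with a point for each library that holds at least 10 cells of the type. Microglia lie among the non-neuronal types, at 5.12 to 8.98 barcode UMIs per cell without sorting, far below excitatory neurons per cell (80.9 to 109.6) and nearer to them per RNA UMI (12.4 to 21.8 against 39.6 to 50.2).

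Each barcode was found in microglia, to an extent that the deposited tables understate. In these tables a count of a single UMI was listed as 0 for every barcode but that of AI, which affected 5489, 4609 and 4425 entries in unsorted mice 1, 2 and 3 and 217 after the sort, over all cell types. When the UMIs were recounted from the reads, microglia with at least 1 UMI rose from 87.7% to 95.9% for DMS, from 38.5% to 68.5% for MD, from 26.4% to 60.4% for LH and from 3.63% to 21.2% for BLA, over the 2894 unsorted microglia, while AI stayed at 44.1%. Any of the 5 barcodes was found in 93.2% of them in the tables and in 98.4% in the recount.

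Most microglia held several barcodes. In the recount 46 of the 2894 unsorted microglia had none, 261 had 1, 719 had 2, 977 had 3, 693 had 4 and 198 had all 5. In the FAC-sorted library 29 of 57 had all 5, 22 had 4, 5 had 3 and 1 had 2. Among the 84 unsorted activated microglia 1 had none, 8 had 1, 20 had 2, 30 had 3, 23 had 4 and 2 had all 5. Holding several barcodes was not particular to microglia. Of the unsorted cells, 33.8% of microglia, 34.7% of OPC, 34.6% of oligodendrocytes, 37.2% of astrocytes and 27.2% of endothelial cells had 3. All 5 were found in 6.84% of microglia and 69.5% of excitatory neurons.

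Detection was compared at equal RNA depth, with each cell thinned to 1000 RNA UMIs in expectation. Any barcode was then found in 82.6% ± 7.68 of microglia, 78.8% ± 6.84 of activated microglia, 77.5% ± 7.43 of endothelial cells and 86.4% ± 4.41 of excitatory neurons (SD, n = 3 unsorted mice), whose median depths were 4176, 4931.5, 3042 and 21589 RNA UMIs. Without thinning, the recount gave 98.5% ± 1.10 in microglia and 97.7% ± 1.54 in endothelial cells. The range over mice of the thinned shares of microglia (73.8% to 87.6%) overlapped those of endothelial cells (69.0% to 82.8%) and excitatory neurons (81.4% to 89.5%). Astrocytes had 85.3% (76.4% to 90.5%) and OPC 83.7% (76.4% to 88.4%), with means above that of microglia. Oligodendrocytes had 74.5% (64.5% to 81.2%). The highest astrocyte value lay above the highest of excitatory neurons. The means, the lowest and the highest values rose from endothelial cells over microglia to excitatory neurons, an order that leaves these other types out. The difference within each mouse was not tested. Where the barcode UMIs of microglia came from was not tested. By barcode, the thinned shares in microglia and excitatory neurons were 66.7% and 71.7% for DMS, 28.5% and 46.2% for MD, 22.1% and 39.5% for LH, 14.5% and 27.2% for AI and 6.29% and 14.6% for BLA.

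The makeup of the microglial barcode UMIs was not that of the excitatory neurons beside them. DMS took 64.9%, 64.8% and 65.2% of the barcode UMIs of microglia in unsorted mice 1, 2 and 3, against 43.9%, 43.6% and 45.0% in excitatory neurons. In the FAC-sorted library it took 50.6% against 41.9%. The DMS share was higher in microglia in 4 of 4 libraries, by 17.8 ± 6.06 percentage points (SD, n = 4, exact two-sided sign-flip test, p = 0.13, adjusted p = 0.156 over the 5 barcodes).

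The other barcodes were correspondingly less represented. MD took 14.8% of the microglial barcode UMIs on average over the unsorted mice, LH 10.0%, AI 8.92% and BLA 1.24%. The differences to excitatory neurons over the 4 libraries were -7.83 percentage points for MD, -6.48 for LH and -2.77 for BLA, each lower in 4 of 4 libraries (exact two-sided sign-flip test, p = 0.13, adjusted p = 0.156), and -0.71 for AI, lower in 2 of 4 (exact p = 0.5). Because single UMIs of all barcodes but AI are missing from the tables, the makeup of cells with low counts is shifted. In the recount the DMS share of microglia was 57.1%, 59.5% and 60.0%, and 49.9% after sorting, and its difference to excitatory neurons was 13.1 percentage points. For MD, LH, AI and BLA the recount gave -6.29, -4.17, -1.47 and -1.18. The directions for BLA and AI turned in other recounts, to 0.094 and 0.27 percentage points with UMIs of at least 2 reads, and to 0.29 and 0.78 when a UMI found with several barcodes of a cell was counted only for the barcode with most reads.

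The high DMS share was not particular to microglia. In the deposited counts it was 64.7% in astrocytes, 64.3% in OPC, 61.3% in oligodendrocytes, 60.9% in endothelial cells and 58.8% in inhibitory neurons, as means over the unsorted mice. Relative to microglia, the mean of excitatory neurons per barcode in the recount was 17.0-fold higher for MD, 16.1 for LH, 16 for BLA and 15 for AI in the unsorted mice, and 8.95-fold for DMS. In the FAC-sorted library these ratios were 9.76, 10.5, 11.7, 8.37 and 7.17.

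**Figure D5:**
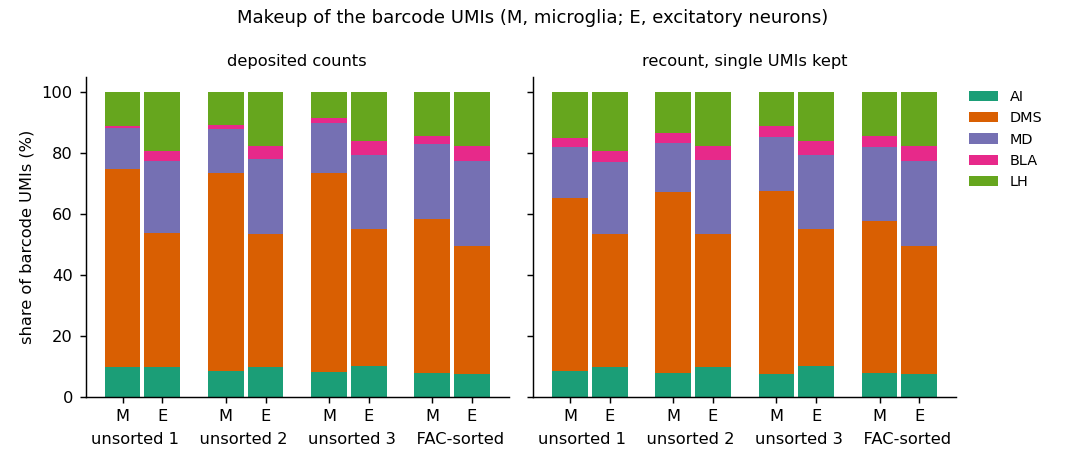
Share of each of the 5 barcodes among the barcode UMIs, in percent, for microglia (M) and excitatory neurons (E) in each library, from the deposited counts (left) and from the recount with single UMIs kept (right). DMS is larger in M than in E in every library, by 8.73 to 21.2 percentage points on the left.

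No microglial cell reached the counts that the authors kept as a valid barcode. For AI the highest microglial count was 24, in a sorted cell with 85 barcode UMIs in all, and the lowest count kept was 29. For BLA it was 35, in unsorted mouse 3, against 36. For DMS it was 61, in unsorted mouse 2, against 102. For MD and LH it was 24 and 59, against 115 and 104, both in the same cell of unsorted mouse 2, which had 156 barcode UMIs and 4455 RNA UMIs. None of the 2951 microglia and none of the 85 activated microglia was called barcoded, where 3 counts would be 0.102% and 3.53%. These cells were among those that set the thresholds, and the authors had first removed cells with unusually high barcode UMIs. The absence of calls is therefore partly fixed by these steps, and the percentages are not upper limits on the share of barcoded microglia.

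The molecules behind these counts were thinly covered by reads. The microglia of unsorted mice 1, 2 and 3 held 6253, 9349 and 8783 barcode molecules, and the sorted microglia 1787, where a molecule is a different combination of cell, barcode and UMI. Each microglial molecule had on average 4.18, 5.77 and 5.63 reads without sorting and 7.62 with it, against 26.7, 33.9, 33.5 and 37.7 in excitatory neurons. A single read stood behind 81.9%, 79.5%, 75.0% and 67.7% of the microglial molecules, and behind 60.3%, 59.2%, 57.0% and 57.3% of those of excitatory neurons. With only the UMIs of at least 2 reads, microglia had 1.84 ± 0.669 barcode UMIs per cell in the unsorted mice (SD, n = 3) and 10.1 after sorting, and the excitatory mean was 23.7-fold higher without sorting and 11.3-fold with it.

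UMIs that occurred with more than 1 barcode in the same cell were less frequent in microglia. They made up 7.21%, 7.21%, 7.87% and 11.0% of the microglial molecules in unsorted mice 1 to 3 and the sorted library, against 39.7%, 39.5%, 41.8% and 32.8% in excitatory neurons. Such a UMI was counted once for each of its barcodes, in the deposited counts and in the recount. The counts, ratios and numbers of barcodes per cell given here for excitatory neurons therefore include them. The exception is the recount that gave a shared UMI only to the barcode with most reads. The source of these shared UMIs was not tested. The UMI and barcode of a microglial molecule were also rarely found together in an excitatory neuron. The same UMI and barcode occurred in an excitatory neuron of the same library for 0.704%, 0.931% and 0.763% of the microglial molecules of mice 1 to 3 and 1.01% of those of sorted cells. Looked up in the excitatory neurons of the other libraries, the share was 0.970%, 0.931%, 0.854% and 0.448% on average. The mean difference was 0.05 percentage points (exact two-sided sign-flip test over 4 libraries, p = 1) and -0.12 without the FAC-sorted library. The lookups differ in size, with 212296, 246945, 252662 and 431429 molecules of excitatory neurons. Matches also occurred between libraries, so a match does not show that a molecule was shared. The source of the microglial molecules was not tested.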

How the data were processed

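The members, lists and tests were chosen with earlier results of these data known. Per the labels and the study's methods, scRNA-seq libraries were processed by the authors with Cell Ranger and the mm10 genome with the barcodes added, cells were filtered on genes, RNA UMIs and mitochondrial share, and types were named after Leiden clustering. Sequencing depth, genes, mitochondrial share and sorting had been regressed out before clustering. The deposited barcode tables hold the authors' raw UMI counts per cell and barcode, made with a modified deMULTIplex without normalization. The deposited annotation gives counts of RNA UMIs and genes and the percent of mitochondrial UMIs per cell. The deposited joined matrix, with sub-threshold counts set to 0 by the authors, was used only for the lowest count kept. Deposited reads were recounted with up to 2 mismatches in the 15 bases. Another 31 columns of the whole-series tables, such as embedding coordinates, were not used.

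Values are per library, and cells were not treated as replicates. Sorted and unsorted libraries were compared by an exact two-sided permutation test, and types within a library by an exact two-sided sign-flip test, where a type had at least 10 cells, with Benjamini-Hochberg adjustment over types or barcodes. These p-values cannot go below 0.25, or 0.13 with 4 libraries. Intervals are Clopper-Pearson, and a count of 0 is given the limit of 3 counts. Items named were all 5 barcodes, 8 cell types and 4 libraries, and the microglial cell with the highest count of each barcode. Thinning used a fixed random seed. Alternatives were other recounts, thinned reads, cells with the most RNA or barcode UMIs left out, medians, other denominators, and libraries left out. The code was tested on simulated data. Python 3.11.15, numpy 2.4.6, pandas 2.3.3, scipy 1.17.1 and matplotlib 3.10.9 were used. Gene expression was not analysed here.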

Additional observations from a re-analysis of the deposited data

How the results depend on the processing

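Of 249 alternative values, 238 kept their direction and 11 did not. All p-values stayed at or above 0.13, as the number of libraries fixes. Among non-neuronal cells the sorted minus unsorted share was 48.4 percentage points. With reads thinned to equal numbers, the log2 difference per 10000 RNA UMIs between sorted and unsorted microglia was -0.46. Activated against other microglia per cell gave -0.027 with UMIs of at least 2 reads, -0.0076 with thinned reads and 0 with medians. Microglia against endothelial cells per cell gave -0.16 with at least 2 reads. The makeup difference to excitatory neurons was 0.27 (at least 2 reads) and 0.78 (shared UMIs given to the barcode with most reads) percentage points for AI, and 0.094 and 0.29 for BLA. The difference in molecules found in excitatory neurons ranged from -0.12 without the FAC-sorted library to 0.16 without unsorted mouse 1. Microglia against excitatory neurons per cell was 0.0514-fold with at least 2 reads and 0.162-fold with medians, and per 10000 RNA UMIs 0.249-fold and 0.739-fold. Sorted and unsorted microglia could not be compared in pairs because the FAC-sorted library shares no mouse with the unsorted libraries. With 1 sorted library and 57 sorted microglia, sorting, pooling and depth cannot be told apart.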
